A study of Mus musculus with 4 samples.

Results

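The 9 genes described here are genes of amyotrophic lateral sclerosis (ALS) and known targets of the RNA-binding protein TDP-43: Tardbp, Sod1, Unc13a, Stmn2, Tbk1, Optn, Sqstm1, Sort1 and Vcp. They were chosen by symbol, with earlier results of these data known, and all 9 were among the 19465 genes of the deposited count matrices. Visium spatial transcriptomics, which counts unique molecular identifiers (UMI) in barcoded spots under a tissue section, had been run on brain sections of 5 µm from formalin-fixed, paraffin-embedded blocks of mice aged 11 weeks. The groups were 2 control and 2 rNLS8 sections, taken 3 weeks after doxycycline withdrawal, a treatment that the labels give for all 4 samples. In the rNLS8 line, as background, a neurofilament heavy chain promoter drives a doxycycline-repressed transactivator, so that neurons make a human TDP-43 with a defective nuclear localization signal once the drug is withdrawn. The genotype of the controls is given only as control, and replicate 1 is labelled female and replicate 2 male in each group.

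TDP-43, the product of Tardbp, binds UG-rich RNA in the nucleus, and its loss from the nucleus with aggregation in the cytoplasm is the hallmark lesion of ALS neurons. Among its known targets are transcripts of the synaptic vesicle priming factor UNC13A and the axonal tubulin regulator stathmin-2, in which cryptic exons appear in human neurons when TDP-43 is lost, and of the sorting receptor sortilin, whose exon use it sets. Sod1, Tbk1, Optn, Sqstm1 and Vcp are other ALS genes, for a cytosolic superoxide dismutase, a kinase, a pair of autophagy receptors and a segregase that extracts ubiquitinated proteins.

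Total counts were 19064969 and 23869254 UMI in control replicates 1 and 2 and 28056089 and 17627577 in rNLS8 replicates 1 and 2. After spots under 500 UMI were left out, 3810, 3306, 3031 and 2655 spots remained, with medians of 5364, 6098, 9776 and 6316 UMI. Spots fell into clusters by 98 region markers, and clusters were named from those markers; 2295 of 12802 spots stayed unnamed (18.9%, 21.0%, 15.7% and 15.2% of the sections in the same order). Cortex took 29.4%, 28.2%, 28.1% and 40.1% of spots, and striatum 17.7%, 18.1%, 22.3% and 13.8%. The cluster named middle cortex and layer 5 led in the markers of cortex of all layers (mean log2 lead over the other clusters 0.935). It led in neither the upper-layer (-0.225) nor the deep-layer markers (-0.121), although Fezf2, a deep-layer marker, was among its 10 leading genes. Its layer name is thus uncertain. The library labelled rNLS8 replicate 1, female, held Y-linked counts at 137 CPM (counts of UMI per 1000000 UMI of the section or region), like the male-labelled control replicate 2 at 107 and rNLS8 replicate 2 at 139, against 0 in control replicate 1, so its sex label is contradicted; results that call a member are given with and without it. By these counts control replicate 1 is the only section without Y-linked UMI, so sex and group are partly confounded. Fits without control replicate 2 set that section alone against rNLS8 sections that both hold Y-linked counts. Nothing in the labels says how far the sections of a group come from separate experiments. The p-values thus measure the spread between these 4 sections. A spot covers several cells, and fewer cells of a type and less RNA per cell cannot be told apart in these counts.

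Promoter sequence was available in RefSeq (GRCm38.p6) for 7 of the 9 genes, Tardbp, Sod1, Unc13a, Tbk1, Optn, Sqstm1 and Vcp. The 250 bases before the annotated start are shown for Unc13a and Optn, the members with the lowest and the highest rNLS8 to control ratio in cortex apart from Tardbp. Capitals mark GGGCGG, the GC box, on either strand; CCAAT and TATAAA were also searched on both strands, and neither lies in these 2 windows. Over all 32851 promoter windows of the same length, 32.7% held GGGCGG, 33.8% CCAAT and 12.4% TATAAA.
Unc13a, chr8:71671758-71672007, minus strand: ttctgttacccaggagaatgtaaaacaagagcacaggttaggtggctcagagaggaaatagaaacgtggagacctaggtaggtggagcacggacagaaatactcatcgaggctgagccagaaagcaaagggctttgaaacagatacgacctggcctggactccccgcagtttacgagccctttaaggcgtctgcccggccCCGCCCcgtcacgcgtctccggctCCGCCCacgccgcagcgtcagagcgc
Optn, chr2:5064118-5064367, minus strand: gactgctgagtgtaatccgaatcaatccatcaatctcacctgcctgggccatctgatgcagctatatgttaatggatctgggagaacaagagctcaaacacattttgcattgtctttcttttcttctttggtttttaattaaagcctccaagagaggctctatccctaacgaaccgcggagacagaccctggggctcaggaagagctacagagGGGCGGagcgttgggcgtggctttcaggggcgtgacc
The Unc13a window holds 2 GC boxes and is 58% G and C, the Optn window 1 GC box and 50%. The motif matches describe letters only.

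Tardbp was at 0 UMI in both control sections and at 197 and 138 UMI in the rNLS8 sections. It was the only gene with no UMI in both controls and at least 100 UMI in each rNLS8 section, and 0 genes showed the reverse. With no UMI in either control, these counts give no change of the endogenous transcript; the labels do not say which transcript the probes bind. The rNLS8 mean of this row, 7.43 ± 0.571 CPM (SD, n = 2), was 52.4 times a floor of 3 counts per control section. The UMI lay in 187 of 3031 and 137 of 2655 kept spots, so that most of these spots held a single UMI.

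Tardbp counts were found in every region tested rather than in cortex alone. In cortex they came to 73 UMI in rNLS8 replicate 1 and 62 in replicate 2, or 8.21 and 7.37 CPM, with exact Poisson 95% intervals of 6.43 to 10.3 and 5.65 to 9.45. In striatum they were 60 and 24 UMI, or 7.70 and 9.40 CPM. White matter gave 3.83 and 8.91, and the meninges and vessels 3.11 and 6.36. The rNLS8 mean was 19.1 times the same floor of 3 counts per control section in cortex, 16.9 times in striatum and 10.0 times in the middle cortex and layer 5. In regions with few UMI the ratios to the floor were small: 1.12 in meninges and vessels, 1.31 in septum, 1.78 in the deepest layer and 1.79 in claustrum and endopiriform. There were 2 or 3 UMI in 1 section of septum, basal forebrain, claustrum and endopiriform and meninges and vessels. These ratios carry no error of the rNLS8 counts. The Poisson upper limit of control replicate 1 was above the rNLS8 mean in meninges and vessels (6.42 against 4.74 CPM) and septum (5.24 against 4.95). The intervals of these regions overlap widely, and no order among regions can be read at this depth; intervals and floors cover counting error only.

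**Figure D1:**
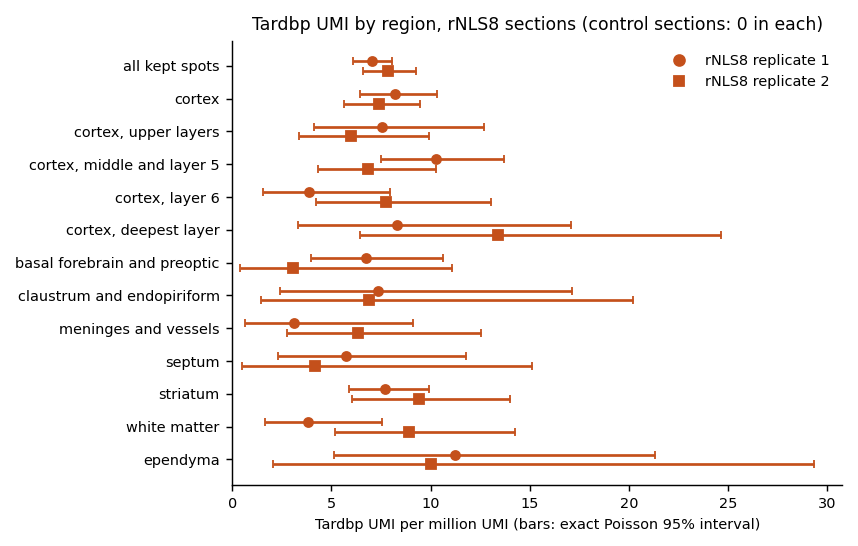
Tardbp CPM in the 2 rNLS8 sections, by region, with exact Poisson 95% intervals as bars; circles are replicate 1 and squares replicate 2. Cortex at 8.21 and 7.37 and striatum at 7.70 and 9.40 lie among the other regions, and the control sections are at 0 in each.

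Tardbp passed the filter on low counts only through the rNLS8 sections, so no p-value of the fit is given for it, and it is left out of the counts of members below.

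The whole-section comparison called no gene by edgeR, although 2093 genes (15.6%) passed an unadjusted p under 0.05 and DESeq2 called 519. Without control replicate 2 the edgeR count was 1839. Of the 8 members other than Tardbp, 6 were below both control sections in both rNLS8 sections on TMM-scaled CPM (background: 25.3% of genes). A further 1 was above (26.9%) and 1 overlapped. By edgeR 2 of the 8 had an unadjusted p under 0.05. Levels from here on are TMM-scaled CPM unless another scale is named, with control replicates 1 and 2 first and rNLS8 replicates 1 and 2 after them. Under tissue, the members other than Tardbp had between 655 UMI (Tbk1 in control replicate 1) and 25001 UMI (Sqstm1 in rNLS8 replicate 1) per section.

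Unc13a, which primes synaptic vesicles for release, was at 181 and 198 in control and 114 and 112 in rNLS8 sections. Both rNLS8 sections lay under both controls, with a log2 fold change of -0.75 (SE 0.133, edgeR adjusted p = 0.169). In cortex the levels were 218 and 229 in control against 128 and 120 in rNLS8, a log2 fold change of -0.86 (SE 0.137) whose adjusted p of 0.0546 did not pass the threshold of 0.05; 6 of the 14 alternatives called it, with adjusted p from 0.000167 to 0.518. Among the 14, spots clustered on 2000 genes instead of the region markers gave -0.85 and 0.0503, and -0.88 and 0.041 with the Cst7-led cortical cluster added; both clusterings were added after the data had been seen.

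By layer, Unc13a fell in upper layers (log2 fold change -0.93, SE 0.176, adjusted p = 0.0205) and in the middle cortex and layer 5 (-0.88, SE 0.154, adjusted p = 0.0338), where 1.81% and 1.09% of genes were called lower. The upper-layer levels were 242 and 245 in control and 132 and 123 in rNLS8. Neither call held without rNLS8 replicate 1 (adjusted p = 0.215 and 0.152) or without rNLS8 replicate 2 (0.429 and 0.447). Layer 6 gave -0.72 (adjusted p = 0.0708) and the deepest layer -0.59 (0.124). Outside cortex the values were -0.70 in claustrum and endopiriform, -0.67 in striatum, -0.86 in meninges and vessels, -0.60 in septum and -0.52 in both white matter and basal forebrain. Unc13a was under both controls in all 10 regions and layers. The share of all genes that lay so was 25.2% in upper layers, 25.7% in the middle cortex and layer 5, 24.9% in layer 6, 21.8% in the deepest layer, 23.8% in claustrum and endopiriform, 23.6% in striatum, 21.3% in meninges and vessels, 19.4% in septum, 22.3% in white matter and 19.7% in basal forebrain. Striatal Unc13a was at 167 and 189 in control and 116 and 106 in rNLS8 sections (SE 0.152, adjusted p = 0.0957). Summed markers of neurons in cortex, in CPM without TMM, were 6720 and 7383 in control and 4989 and 4443 in rNLS8 sections. Of the 7 markers, 3 were higher and 3 lower without overlap. Snap25, which is among the 7, was alone at 3238 and 2673 CPM in rNLS8 cortical spots without a Tardbp UMI. The part of neuron content in the Unc13a values was not tested.

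**Figure D2:**
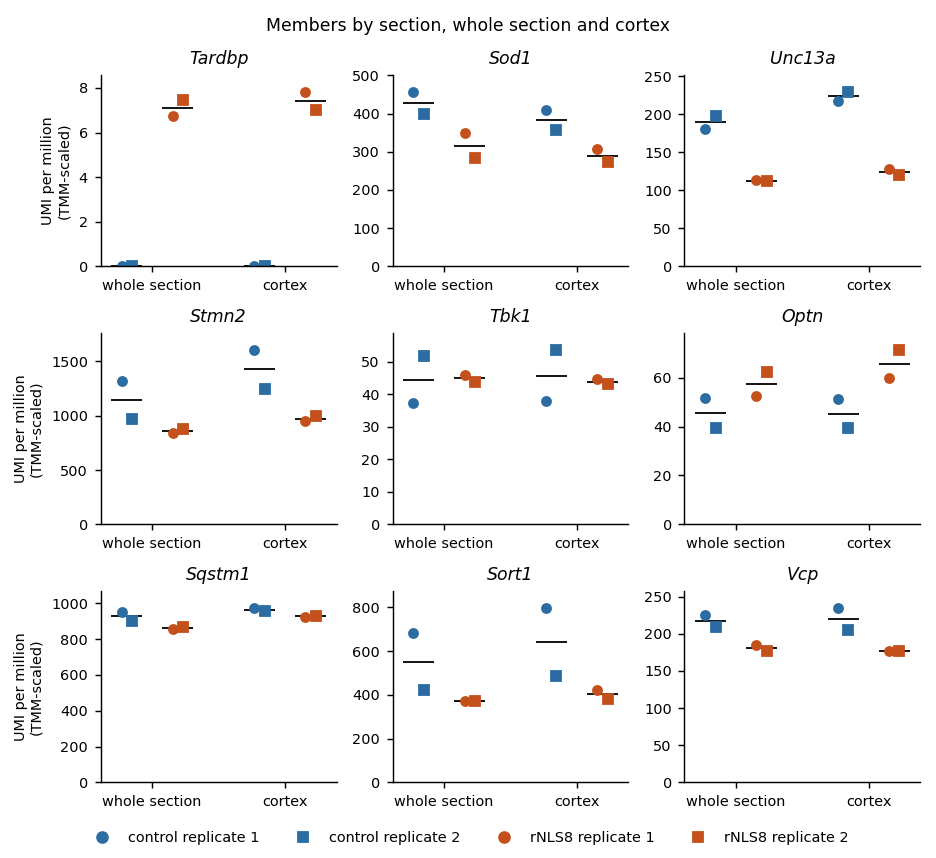
TMM-scaled CPM of the 9 members in the whole section and in cortex; each point is 1 section and each line a group mean. For Unc13a the controls stand at 218 and 229 in cortex and the rNLS8 sections at 128 and 120; for Sort1 control replicate 1 stands apart from the other control.

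Stmn2, whose protein destabilizes microtubules and supports axon growth, was at 1322 and 967 in control and 841 and 878 in rNLS8 whole sections (log2 fold change -0.41, SE 0.193, adjusted p = 0.361). The value was -0.17 without control replicate 1 and -0.63 without control replicate 2, where it passed (adjusted p = 0.0354). In cortex it was at 1604 and 1250 against 948 and 1000.5, a difference of -0.55 (SE 0.173, adjusted p = 0.155), which moved to -0.36 and -0.75 without those sections (adjusted p = 0.0523 and 0.00246). The groups did not overlap, but the control sections differed from each other by more than the nearer control differed from the rNLS8 sections. Stmn2 fell in claustrum and endopiriform, at 1904 and 1718 in control and 1162 and 1177 in rNLS8 (log2 fold change -0.63, SE 0.142, adjusted p = 0.0404), where 1.30% of genes were called lower. The call was lost without rNLS8 replicate 1 (adjusted p = 0.317), without rNLS8 replicate 2 (0.358) and with a replicate block (0.202). By layer, Stmn2 was at 1736 and 1367 against 964 and 977 in the middle cortex and layer 5 (-0.68, SE 0.170, adjusted p = 0.0809) and at 1544 and 1287 against 979 and 1009 in layer 6 (-0.51, SE 0.150, adjusted p = 0.117). The differences were smaller in upper layers (-0.35) and in the deepest layer (-0.31), and the groups stayed apart in all 4 layers. In striatum they overlapped, at 835 and 567 against 586 and 583 (-0.26, SE 0.200, adjusted p = 0.565), as they did in white matter and basal forebrain. In cortex the sum of the 7 neuron markers given beside Unc13a was also lower in both rNLS8 sections. Among the 7, 3 were higher and 3 lower without overlap. Within each group the sums ordered the 2 sections in reverse of Stmn2, and with 2 sections no reading is made from that order. Their part in the Stmn2 values was not tested.

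**Figure D3:**
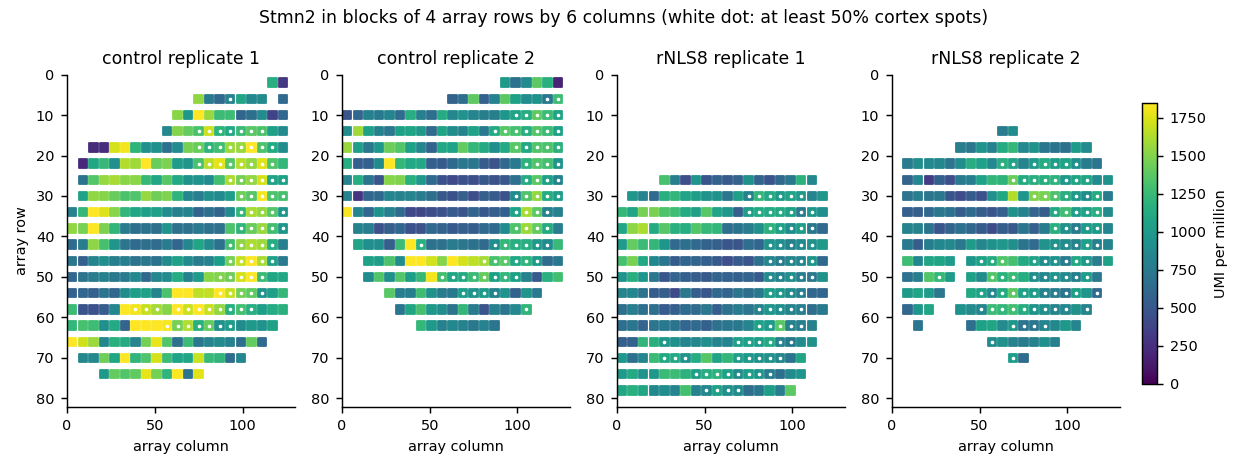
Stmn2 CPM in blocks of 4 array rows by 6 array columns, 1 panel per section, with white dots on blocks where at least 50% of spots were cortex; the brightest colour also stands for higher values. The median block is at 1165 and 904 in the control sections and at 863 and 892 in the rNLS8 sections.

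Sort1, a sorting receptor for progranulin, was at 682 and 422 in control and 371 and 373 in rNLS8 whole sections (log2 fold change -0.57, SE 0.240, adjusted p = 0.33). In cortex it was at 796 and 485 against 424 and 382 (-0.67, SE 0.242, adjusted p = 0.195). Control replicate 1 carries most of that difference: without it the cortical value moved to -0.27, and without control replicate 2 to -1.01 (adjusted p = 0.00182). In upper layers it was at 896 and 587 against 489.7 and 410 (-0.72, SE 0.219, adjusted p = 0.106). Sort1 lay under both controls in 6 of the 10 regions and layers and overlapped in layer 6, claustrum and endopiriform, septum and basal forebrain.

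Optn, an autophagy receptor, was the only member besides Tardbp to lie higher in both rNLS8 cortices on TMM-scaled CPM. It was at 51.1 and 39.5 in control and 59.7 and 71.3 in rNLS8 cortex (log2 fold change 0.53, SE 0.187, adjusted p = 0.186), and at 51.7 and 39.4 against 52.4 and 62.4 in the whole section (0.33, SE 0.189, adjusted p = 0.426). Leaving out 1 section moved the whole-section value between 0.14 (without control replicate 2) and 0.54 (without control replicate 1) and the cortical value between 0.33 and 0.72 with the same sections, the last with an adjusted p of 0.0361. In the middle cortex and layer 5 it was at 52.2 and 42.5 against 65.4 and 79.6 (0.61, SE 0.196, adjusted p = 0.134), and in layer 6 at 42.3 and 37.9 against 58.7 and 59.5 (0.56, SE 0.200, adjusted p = 0.176). It lay above both controls in upper layers (26.7% of all genes), in the middle cortex and layer 5 (28.0%) and in layer 6 (26.6%), and overlapped in the deepest layer (23.1% of all genes above) and in all 6 regions outside cortex, where 24.2% of genes lay above in claustrum and endopiriform, 25.8% in striatum, 22.2% in meninges and vessels, 20.2% in septum, 23.6% in white matter and 19.7% in basal forebrain. The difference between its cortical and non-cortical change was 0.33 (SE 0.118, unadjusted p = 0.0133, adjusted p = 0.335), which does not pass the test. Summed microglial markers in cortex, in CPM without TMM, were 360 and 473 in control and 921 and 1406 in rNLS8 sections. Of these 10 markers, 8 were higher without overlap. Astrocyte markers on the same scale were 2517 and 3440 against 3626 and 4361. Divided by the cortical TMM factors (0.915 and 0.986 in control, 1.05 and 1.06 in rNLS8), the astrocyte sums of the groups overlap. The part of both marker sums in the Optn values was not tested.

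None of the 4 other members passed the test in the whole section or in any region or layer. Sod1, a superoxide dismutase, was at 411 and 358 in control and 307 and 272 in rNLS8 cortex (log2 fold change -0.41, SE 0.151, adjusted p = 0.201), and lay under both controls in 9 of 10 regions and layers. Its largest difference was in striatum, at 501 and 447 against 354 and 313 (-0.50, SE 0.154, adjusted p = 0.179). Vcp was at 234 and 205 against 177.2 and 177.3 (-0.31, SE 0.142, adjusted p = 0.285), and lay below in 8 of 10. Without control replicate 2, Sod1 at -0.53 and Vcp at -0.43 passed in cortex (adjusted p = 0.0122 and 0.0167). Sqstm1, the p62 receptor, was at 973 and 957 against 925 and 928 (-0.058, SE 0.139, adjusted p = 0.845), and the sign of that value turned under total-UMI scaling. Without TMM its cortical CPM was 890 and 942 in control and 971 and 979 in rNLS8, above both controls. Tbk1, the kinase that phosphorylates optineurin and p62, was at 37.8 and 53.6 against 44.8 and 43.1 (-0.060, SE 0.200, adjusted p = 0.893), with overlapping groups in the whole section and in cortex. It lay above both controls in white matter, at 39.2 and 37.5 against 49.3 and 44.8 (0.30, SE 0.224, adjusted p = 0.621), and in basal forebrain (0.43, SE 0.276, adjusted p = 0.787). On the TMM scale, 6 of the 8 members in cortex lay under both controls (26.5% of all genes), 1 above (28.5%) and 1 overlapped. Sqstm1 is among the 6 on that scale only. By edgeR 5 of the 8 had an unadjusted p under 0.05 against 20.6% of all genes, and 0 were called against 0.875%; DESeq2 called Unc13a, Stmn2 and Sort1. The median log2 fold change of the 8 in cortex was -0.36, against 0.020 over all genes. The members were chosen with earlier results of these data known, so these counts and the median are no test of the set.

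**Figure D4:**
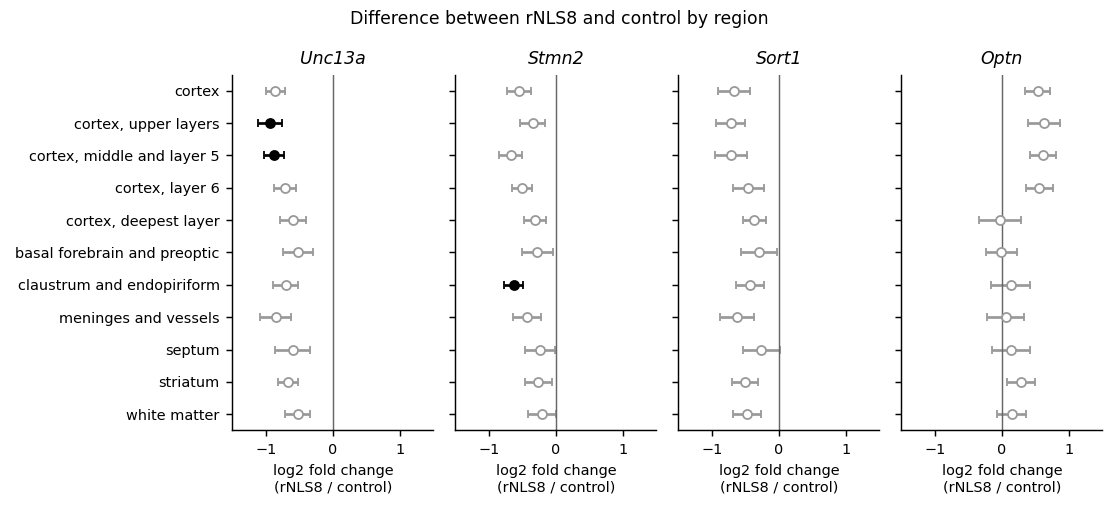
Log2 fold change of rNLS8 over control for Unc13a, Stmn2, Sort1 and Optn by region, with the SE as bars; filled points passed adjusted p under 0.05. Filled points are Unc13a in upper layers and in the middle cortex and layer 5, and Stmn2 in claustrum and endopiriform.

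No member's change passed the test of a difference between cortex and the other spots, which called 41 of 12913 genes (0.318%, and 9.90% at an unadjusted p under 0.05), or between cortex and striatum, which called 16 of 12605 (0.127%, and 10.6% unadjusted). Stmn2 was at -0.22 (SE 0.0836, edgeR adjusted p = 0.358) for cortex against other spots and at -0.33 (SE 0.0986, edgeR adjusted p = 0.239) for cortex against striatum. Unc13a was at -0.18 (edgeR adjusted p = 0.572) and -0.21 (edgeR adjusted p = 0.518). Tardbp, with 0 UMI in all control sums, gave no usable estimate in either test. Members called in one region and not in another were thus not shown to differ between them.

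Regional levels are given for the 2 control sections in CPM scaled to each region's own total without TMM. Stmn2 was highest in claustrum and endopiriform, at 1775 and 1648, and lowest in striatum, at 786 and 553. Unc13a was highest in upper layers, at 221 and 240, and neighbours in its order of regions overlapped throughout. Optn was highest in basal forebrain and lowest in striatum. Sort1 peaked in upper layers, at 820 and 576. Sqstm1 and Vcp varied least, with the highest region 1.18 and 1.20 times the lowest in control replicate 1. Levels were not compared between genes.

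The genes most like each member in level over 40 sums (10 regions and layers by 4 sections) were described by Pearson's r over the log2 level. For Unc13a these were Camkk2 (0.915), Vamp2 (0.887) and Sept5 (0.871), and for Stmn2 Tubb2a (0.944), Adgra1 (0.909) and Ppm1e (0.878). For Sort1 they were Fam131a (0.884), Fjx1 (0.869) and Mast3 (0.866), and for Sod1 Radil (0.874), Prkar2b (0.870) and Haghl (0.867). The members of the autophagy group had lower values: Tbk1 with Saraf (0.799), Pcnx (0.788) and Ddx1 (0.772), Optn with Podxl2 (0.763), Vat1 (0.763) and Kcnk10 (0.739), Vcp with Cdh24 (0.749) and Rwdd2a (0.731), and Sqstm1 with Nmnat2 (0.744), Elfn2 (0.728) and Lnx1 (0.713). Tardbp was left out as too sparse. The sums share sections and depth.

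Moran's I, the authors' measure of spatial clustering of a gene within a section, is 0 for a random spread. Unc13a had values of 0.0914 and 0.0567 in control and 0.0331 and 0.0262 in rNLS8 sections, a difference of -0.0444 (SE 0.0161), with limma's moderated test giving adjusted p = 0.335. Stmn2 was at 0.163 and 0.213 against 0.214 and 0.158, and its groups overlapped. Sod1 was at 0.113 and 0.0823 against 0.0943 and 0.0209, and Sort1 at 0.109 and 0.0724 against 0.0849 and 0.0294, each with rNLS8 replicate 2 lowest. Of 6321 genes in at least 10% of spots of each section, 2 (0.0316%) were called, both higher in rNLS8, and none was a member; 907 (14.3%) had an unadjusted p under 0.05, and the median difference over all genes was -0.0119.

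**Figure D5:**
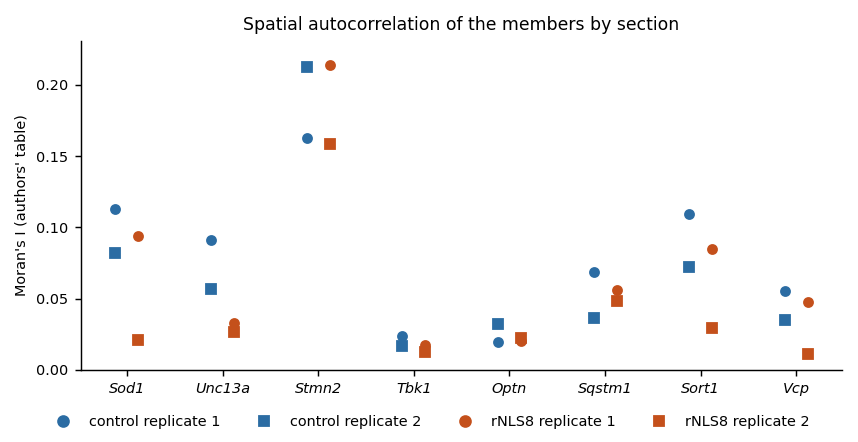
Moran's I from the authors' tables for 8 members, 1 point per section. Unc13a lies lower in both rNLS8 sections than in both controls, at 0.0331 and 0.0262, with a limma adjusted p of 0.335. Over all genes the median difference was -0.0119, and 12.4% were lower at an unadjusted limma p under 0.05. The share of all genes lying under both controls was not counted for this measure. Stmn2 overlaps between the groups.

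Within rNLS8 cortex, spots with a Tardbp UMI were compared with the others in the same section, as a description. Unc13a was at 0.939 and 1.12 times the level of spots of the same cluster mix in the 2 sections, with counting intervals of 0.761 to 1.15 and 0.886 to 1.39. Stmn2 was at 0.952 (0.884 to 1.02) and 1.13 times (1.05 to 1.22). Spots with a Tardbp UMI were deeper, with medians of 11390 and 9596 UMI against 10647 and 7954, and only 68 and 62 such spots exist. After thinning every spot to 3000 UMI, 19 and 29 spots with a Tardbp UMI remained, too few to order the members.

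Genes of the same pathways were counted from lists chosen by function, with results of these data known. Over all genes tested in cortex, 0.413% were called higher and 0.462% lower. Among ALS genes beyond the members, 1 of 34 tested in cortex was called, Grn (progranulin), at 65.6 and 57.1 in control and 139.9 and 177 in rNLS8 (log2 fold change 1.37, SE 0.175, adjusted p = 0.0401); the list's median was -0.036 against 0.020 over all genes. Among other TDP-43 bound or spliced RNAs, 1 of 27 was called, Nefl, the neurofilament light chain, at 810 and 726 against 317 and 267 (-1.40, SE 0.160, adjusted p = 0.0332), and the median was -0.36. Among stathmins and release-site partners 1 of 18 was called, Stx1a, a SNARE protein of the plasma membrane, at 192 and 199 against 103 and 91 (-1.01, SE 0.143, adjusted p = 0.0468), with a median of -0.42. Among autophagy receptors, kinases and Vcp cofactors 0 of 26 were called, with Becn1 at -0.76, Map1lc3a at -0.35, Tbkbp1 at 0.73 and Ufd1 at 0.63 and a median of 0.057; in upper layers Becn1 was called lower (-0.80, adjusted p = 0.0495) and Tbkbp1 higher (1.06, adjusted p = 0.0301). The superoxide and peroxide defence list had 0 of 15 called, with Hmox1 at 1.12, Prdx2 at 1.09, Sod2 at -0.48 and Nqo1 at -0.26, and the sortilin family and ligands 0 of 12, with Bdnf at 0.57 and Nts at -1.18.

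Several genes of the lists were called in single layers or regions. The share of all genes called lower was 1.81% in upper layers, 1.09% in the middle cortex and layer 5, 0.991% in layer 6, 1.25% in the deepest layer, 1.30% in claustrum and endopiriform, 0.334% in striatum and 0.411% in meninges and vessels. Nefl (-1.43 to -0.72) and Gria3, a glutamate receptor subunit (-1.32 to -1.04), were called lower in each of these 7. Snap25, a part of the fusion machinery that UNC13A acts on, was called lower in upper layers (-0.93), the middle cortex and layer 5 (-0.91), layer 6 (-0.83) and claustrum and endopiriform (-0.63). Stx1a was called lower in upper layers (-1.01), the middle cortex and layer 5 (-1.07) and layer 6 (-0.96), and Vamp2, another SNARE protein, in the middle cortex and layer 5 (-0.74) and layer 6 (-0.78). In striatum Unc13c, a paralog of Unc13a, and Cyld, a deubiquitinase, were called lower (-1.05 and -1.07). The share called higher was 1.03% in upper layers, 0.814% in the middle cortex and layer 5, 0.580% in layer 6, 0.771% in the deepest layer, 0.583% in claustrum and endopiriform, 0.232% in meninges and vessels and 0.178% in white matter. Grn was called higher in each of these but the deepest layer (1.00 to 1.55), and Cplx1, which clamps and promotes vesicle fusion, in claustrum and endopiriform (0.74) and the deepest layer (0.67). Grn is also known as a microglial gene, and the part of the microglial markers in its value was not tested.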

How the data were processed

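Raw UMI counts per gene and spot were deposited by the authors for 4 sections; per the file headers they came from Space Ranger 2.1.0, and per the labels the build was mm10. The sources used here do not give the probe set. The deposited Moran's I is a score per gene and section. Spots under tissue with at least 500 UMI were kept. Pearson residuals (theta 100, clipped at 10) of 98 region markers, with members, pathway lists and response genes left out, were reduced to 30 components of unit length and clustered by Leiden (15 neighbours, resolution 1; scanpy 1.11.5, leidenalg 0.10.2). This clustering was chosen after other clusterings of these data had been inspected, by balance over sections, depth and markers. Counts were summed per section and region (at least 50 spots in each section) and tested with edgeR 4.0.16 quasi-likelihood fits (TMM, filterByExpr, Benjamini-Hochberg over all genes, threshold 0.05); differences between regions kept the section as a term. The SE is the absolute log2 fold change over the root of F. Moran's I was tested with limma 3.58.1, and DESeq2 1.42.0 was an alternative. The scripts were tested on simulated data. Spot barcodes mark array positions, so sections share them (1900 to 3047 per pair). The members and lists were chosen with earlier results of these data known. Genes were named as follows: all 9 members, from each list the genes passing the test in cortex or else the 2 largest rises and 2 largest falls, and the 3 genes most like a member; a few genes that this rule names are not reported here. Spot positions, barcodes and gene names (other values) were used as deposited; image scale factors were not used.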

Additional observations from a re-analysis of the deposited data

How the results depend on the processing

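Of 508 alternative values for 64 results of the 8 members other than Tardbp, 432 kept direction and side of the threshold, 42 newly passed it, 7 no longer passed and 27 changed sign; no value that changed sign was called. The number of genes called moved more. In the whole section (0 by edgeR) it was 519 by DESeq2, 239 with no filter, 78 with a replicate block and 2 to 1839 with 1 section left out, the last without control replicate 2. In cortex (108) it was 669 by DESeq2, 26 on total UMI without TMM, 316 with no filter, 640 with a replicate block, 63 with spots of at least 1000 UMI, 68 at Leiden resolution 0.6, and 72 (without rNLS8 replicate 2) to 3936 (without control replicate 2) with 1 section left out; clustering on 2000 genes with the Cst7-led cluster, chosen after seeing the data, gave 183. For cortex minus other spots (41) it was 13 by DESeq2, 23 without TMM, 215 with no filter and 3 to 363 with 1 left out. Further settings chosen after seeing the data gave, with a replicate block, 0 in claustrum and endopiriform (152), 493 in the middle cortex and layer 5 (213), 479 in upper layers (295) and 258 in striatum (68), and by DESeq2 475 in the middle cortex and layer 5 and 373 in striatum; with 1 section left out the ranges were 40 to 862, 92 to 3275, 75 to 2595 and 15 to 1545. Moran's I (2) gave 6 for genes in at least 30% of spots, 0 with the block and 3 to 60 with 1 left out.

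Deviations of same-numbered sections correlated at -0.14 in the whole section and -0.16 in cortex. With 2 sections a group, the crossed pairing must give the same values with the sign turned, 0.14 and 0.16. Whether sections pair can thus not be read from them. The block gave Unc13a an edgeR adjusted p of 0.0142 in cortex. A crossed pairing, added after seeing the data, called 216 genes in the whole section and 537 in cortex. Changes of sign were Tbk1 in the whole section at -0.0027 by DESeq2 and RLE and -0.031 with the same spots per cluster, Tbk1 in cortex at 0.080 and Sqstm1 at 0.028 (whole) and 0.090 (cortex) without TMM, and Tbk1 in striatum at 0.014 with the block. With 1 section left out, Tbk1 ran from -0.20 to 0.25 in the whole section, -0.29 to 0.19 in cortex, -0.065 to 0.43 in claustrum and endopiriform, -0.081 to 0.19 in the middle cortex, -0.47 to 0.24 in upper layers and -0.24 to 0.27 in striatum, Sod1 in cortex minus other spots from -0.048 to 0.10, Optn in claustrum and endopiriform from -0.19 to 0.33, Sqstm1 in upper layers from -0.059 to 0.029 and Stmn2 in striatum from -0.53 to 0.038. Differences of Moran's I ran from -0.0295 to 0.0260 for Stmn2, -0.0110 to 0.00163 for Optn, -0.0166 to 0.0161 for Sqstm1 and -0.0343 to 0.00266 for Vcp. The cause was not tested for any of these. With 2 sections a group, the spread rests on few sections, and Tardbp is limited by 335 UMI in all.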
